A study of Mus musculus with 6 samples.

Results

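The 43 genes described here are the tumour suppressor p53 (Trp53), its inhibitors and target genes, and the Bcl2 family with the caspases and inhibitors that act beside it. They were taken from a list of symbols, and each was matched to array probes through the RefSeq accession of the probe. A probe was found for 42 of the 43 and 41 were tested, among 21800 genes tested on the arrays in all. Levels were measured on 6 single-colour Agilent mouse arrays at embryonic day 9.5, in hearts taken with the underlying pharyngeal mesoderm and endoderm. The 3 Arid3b-null samples came from embryos without a working Arid3b gene, which encodes a protein that binds AT-rich DNA, and the 3 wild-type samples from embryos with it. No other allele or treatment is named for either group. Each sample was a pool of 4 embryos, and the labels do not say whether pools came from separate litters, so p-values measure the spread between these pools only.

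In cells under stress, p53 is stabilised when its inhibitors Mdm2 and Mdm4 let go of it, and it then switches on genes that stop division or prepare the cell to die. Death through mitochondria is decided by the Bcl2 family, in which BH3-only proteins block the survival proteins or directly activate the effectors Bax and Bak1, which open the outer mitochondrial membrane. The cytochrome c set free assembles Apaf1 and Casp9 into the apoptosome, and the caspases then dismantle the cell. Several p53 targets also respond to other pathways, among them ATF4 and CHOP in the integrated stress response, the hypoxia response, FoxO factors and growth factor signals. The list was therefore split, by hand and from general knowledge rather than a published list, into 10 targets mostly specific to p53 and 9 shared with other stress pathways, with the remaining 24 members in neither class. A place in neither class does not show that a gene, such as Bax, is no p53 target, and the class counts and medians depend on this split.

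Each level is a log2 signal with the 75th percentile of its array subtracted. Changes are null minus wild type, and adjusted p values are from limma with Benjamini-Hochberg adjustment over all genes tested. Between 27136 and 31039 of 43020 non-control spots per array were well above background, with the lowest count in null pool 3 and the highest in wild-type pool 3, and none was saturated. The 75th percentile that was subtracted was lower on every null array than on every wild-type array. It was 9.47, 9.29 and 9.02 log2 units in null pools 1, 2 and 3, against 9.5, 9.57 and 10.16 in wild-type pools 1, 2 and 3. The part of this difference in the changes of dim genes was not tested. Arid3b itself had 1.08, 0.52 and 0.45 in null pools 1, 2 and 3, against 2.91, 3.4 and 3.69 in wild-type pools 1, 2 and 3, a fall of 6.27-fold (adjusted p = 0.00194). All 9 heart muscle markers were well above background on every array and 0 of them passed the test (0 also had an unadjusted p under 0.05). Of the markers of other cells, all 10 megakaryocyte and platelet genes rose, and their summed signal was 40.2 to 65.7 times the 75th percentile in null pools, against 3.16 to 6.04 in wild-type pools. The summed signal of 4 trophoblast genes was 2.8, 3.47 and 29.7 in null pools 1, 2 and 3, against 2.04 to 4.24 in wild-type pools. Most of that in null pool 3 was 1 gene, Prl3d1 (-3.2, -0.97 and 4.78 in null pools 1, 2 and 3, against -3.3 to -2.99 in wild-type pools), while Hand1 was lowest in null pool 3 and Prl3b1 lay within the wild-type range there. Gcm1 was tested but left out of the summed signal, because it had no value in null pool 1. It had 4.62 and 4.75 in null pools 2 and 3, against 3.23, 1.7 and 3.46 in wild-type pools 1, 2 and 3. Its change of 1.89 did not pass (adjusted p = 0.0688). Ascl2 was the only trophoblast gene called (a change of 3.62, adjusted p = 0.000291), and every null pool lay above every wild-type pool. These trophoblast genes were named after their values were seen. In bulk pools such as these, fewer cells of a type and less RNA per cell cannot be told apart. Each of the 3 slides held 1 null and 1 wild-type pool of the same number, with the wild-type array always in the same place, so place and genotype cannot be told apart.

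In the null hearts, 7 of the 41 tested members rose and 2 fell, while 32 did not pass the test (adjusted p under 0.05). Of all genes tested, 6.64% rose and 3.81% fell, together 10.5%. The risen members were Hrk, Pmaip1, Bbc3, Cdkn1a, Plk2, Btg2 and Fas, and the fallen were Casp8 and Bad. The median change of the tested members was 0.02 log2 units, beside 0.03 over all genes. The null and wild-type pools did not overlap for 19 of the 41 members, 13 higher and 6 lower, where 18.1% and 14.9% of all genes were separated in these directions, 32.9% in all. An unadjusted p under 0.05 was reached by 15 of the 41 members, beside 26.9% of all genes. With median scaling of the arrays 5 members rose and 4 fell, and over all genes the split of 1448 higher and 831 lower turned to 1105 higher and 1399 lower, as the median change over all genes moved to -0.11.

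**Figure D1:**
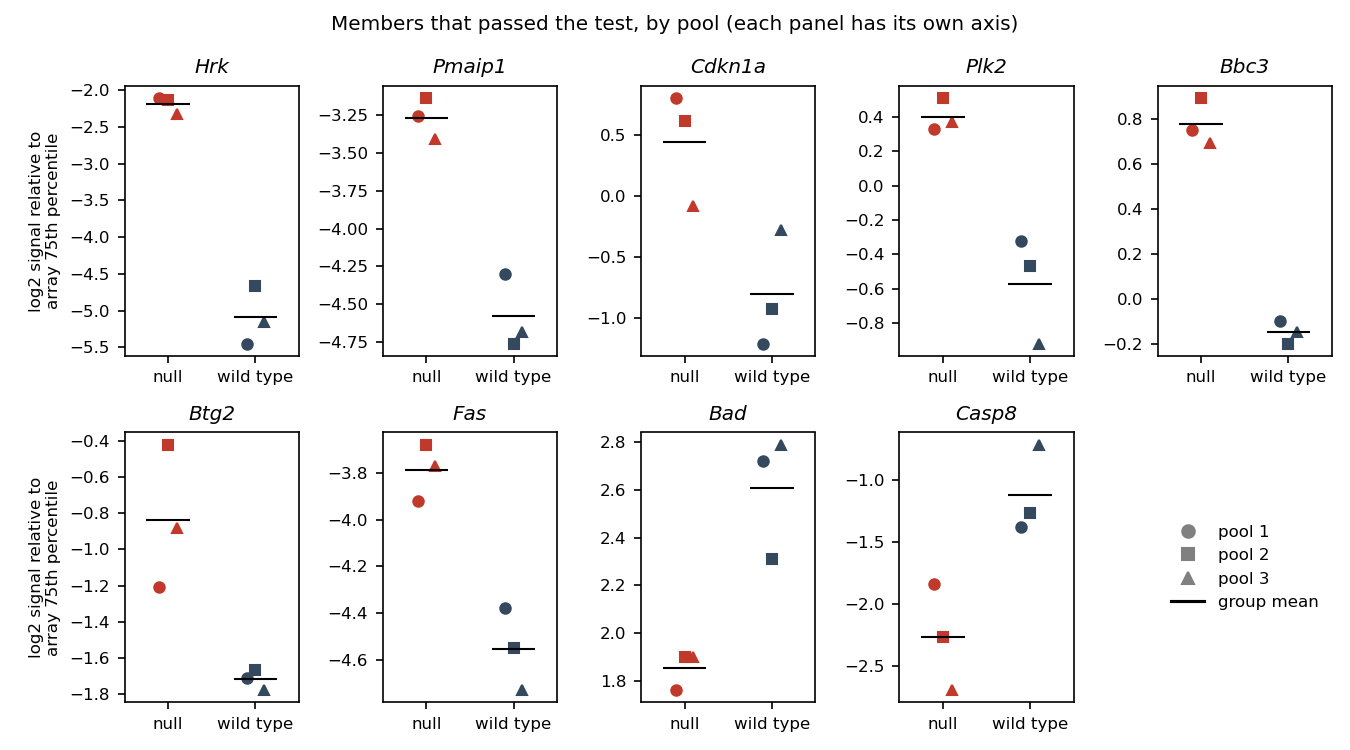
The 9 members that passed the test, each in a panel of its own, with log2 signal relative to the array's 75th percentile on the vertical axis. Points are pools (circle, square and triangle for pools 1, 2 and 3), lines are group means, and in every panel the 3 null pools lie on one side of the 3 wild-type pools.

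Trp53 itself did not pass the test. It had 0.0, -0.13 and -0.07 in null pools 1, 2 and 3, against 0.13, -0.33 and 0.11 in wild-type pools 1, 2 and 3. The groups overlapped, and the change was -0.04 (95% interval -0.45 to 0.38). Mdm2, the ubiquitin ligase that removes p53 and is itself a p53 target, had 2.89, 2.88 and 3.05 in the null pools, against 2.73, 2.7 and 2.56 in the wild-type pools. Every null pool was above every wild-type pool, but the change of 0.28 (95% interval -0.07 to 0.63) did not pass (adjusted p = 0.28). Mdm4, which masks the activation domain of p53, had -0.44, -1.34 and -0.73 in the null pools, against -1.41, -1.54 and -1.83 in the wild-type pools. Its groups did not overlap but the null pools were spread widely, and the change of 0.76 (SE 0.26) on its brightest probe did not pass (adjusted p = 0.106), with 0.31 on its other probe.

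None of the targets mostly specific to p53 rose, with 0 of the 9 tested called in either direction by limma and 2, both lower, at an unadjusted p under 0.05. With 10.5% of all genes called and 26.9% at an unadjusted p under 0.05, these counts are near the background. Their median change was -0.24, with medians of -0.32, -0.31 and -0.01 on slides 1, 2 and 3. Apart from Mdm2, only Polk among the 9 had a positive change. Aen, an exonuclease that fragments DNA in dying cells, had 3.05, 3.13 and 3.34 in the null pools, against 3.82, 4.13 and 3.65 in the wild-type pools. All 3 null pools lay lower, by 0.70 log2 units (95% interval -1.13 to -0.27, adjusted p = 0.0543), and its other probe gave -0.68. Perp, a membrane protein of cell junctions that p63 also controls, had 0.54, 0.76 and 0.7 in the null pools, against 1.47, 1.27 and 1.06 in the wild-type pools. Its groups did not overlap either, and its change was -0.60 (SE 0.17, adjusted p = 0.0676). Neither gene passed as reported, though both were called lower with median scaling (adjusted p = 0.0348 for Aen and 0.0294 for Perp), normexp background correction, a trended and robust prior and array weights, and Aen also where all 6 arrays had to read a probe above background.

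The other targets of this class lay closer to 0 or varied more between pools. Ccng1, which encodes cyclin G1, changed by -0.44 (95% interval -0.99 to 0.12) and Ei24 by -0.57 (-1.59 to 0.44). Ei24 was the least even member of the class, with -0.77, -1.85 and -2.22 in the null pools, against -1.57, -1.19 and -0.37 in the wild-type pools. Zmat3, an RNA-binding zinc finger protein, changed by -0.24 (-0.66 to 0.19), Trp53inp1 by -0.21 (-0.57 to 0.14) and Phlda3, an inhibitor of Akt, by -0.07 (-0.41 to 0.27). These intervals include 0 and do not show that the levels were equal. Polk, a DNA polymerase that copies past damaged bases, changed by 0.37 (SE 0.19, adjusted p = 0.247) on its brightest probe and by 0.87 on its other probe, which taken by itself passed a fit over all kept probes (adjusted p = 0.0158). With the mean of its probes Polk was called higher (0.62, adjusted p = 0.0381). Eda2r, a death receptor of the ectodysplasin family, was left out because its probes were well above background on 0 null arrays and on at most 2 wild-type arrays.

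Of the 9 targets shared with other stress pathways, 6 rose and 0 fell, beside 6.64% of all genes that rose. The median change of the 9 was 0.88, with medians of 0.65, 0.98 and 0.84 on slides 1, 2 and 3. This class holds 7 genes treated here, of which 4 rose, and the BH3-only genes Pmaip1 and Bbc3, treated below. A block for slide lowered the 6 to 1, as did leaving out null pool 2 or wild-type pool 2. Leaving out pool 3 of either genotype gave 3, and testing dim probes too gave 2. No test compared the shared class with the class specific to p53.

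**Figure D2:**
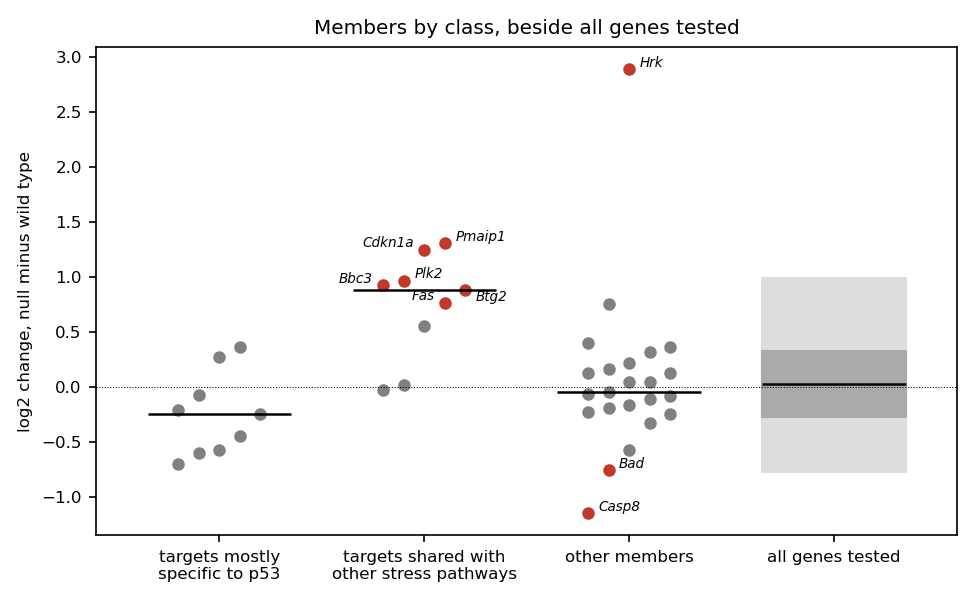
Log2 change (null minus wild type, vertical axis) of each tested member in the 3 classes, with called genes in red and named, class medians as lines, and at the right the range of all 21800 genes (line, median; dark band, 25th to 75th percentile; light band, 5th to 95th). The 9 shared targets lie between -0.02 and 1.31, the 6 named ones from 0.77 up. The 9 targets mostly specific to p53 lie between -0.70 and 0.37, so the ranges of these classes overlap.

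Cdkn1a, the inhibitor of cyclin-dependent kinases known as p21, had 0.8, 0.61 and -0.08 in null pools 1, 2 and 3, against -1.21, -0.93 and -0.28 in wild-type pools 1, 2 and 3. The groups were separated by a narrow gap, since null pool 3 and wild-type pool 3 lay close together. The rise was 2.38-fold (log2 1.25, SE 0.31, adjusted p = 0.0479), and the differences within slides 1, 2 and 3 were 2.01, 1.54 and 0.19. The call ended in the slide-blocked fit (adjusted p = 0.122), with median scaling (0.0681), with dim probes tested too (0.105) and without null pool 1 or 2 or wild-type pool 1 or 2 (up to 0.153). A dim second probe, for another RefSeq transcript, changed by 0.04 and was well above background on 1 null array, and with the mean of both probes the change was 0.64 (adjusted p = 0.0777).

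Plk2, a kinase of the polo family that serum also induces, had 0.33, 0.51 and 0.37 in the null pools, against -0.32, -0.47 and -0.92 in the wild-type pools. All null pools lay above 0 and all wild-type pools below it, and the rise was 1.96-fold (log2 0.97, SE 0.20, adjusted p = 0.0238; 0.65 to 1.28 within slides). Btg2, an antiproliferative gene that is also an immediate early gene, had -1.21, -0.42 and -0.88 in the null pools, against -1.71, -1.67 and -1.78 in the wild-type pools. The wild-type pools were nearly alike and the null pools spread over them, with a rise of 1.84-fold (log2 0.88, SE 0.22, adjusted p = 0.0452; 0.5 to 1.24 within slides). Fas, the death receptor that NF-kappaB also induces, had -3.92, -3.68 and -3.77 in the null pools, against -4.38, -4.55 and -4.73 in the wild-type pools. The groups did not overlap, with a rise of 1.7-fold (log2 0.77, SE 0.17, adjusted p = 0.0306; 0.46 to 0.97 within slides), but with normexp background correction, which shrinks changes of dim spots, its change was 0.30 (adjusted p = 0.0783).

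Blocking on slide ended these 3 calls (adjusted p = 0.0917 for Plk2, 0.128 for Btg2 and 0.163 for Fas), as did testing dim probes too (0.0655, 0.108 and 0.0866) and leaving out pool 2 or 3 of either genotype. That of Btg2 also ended without wild-type pool 1 and with quantile (0.0647) or median (0.0648) scaling, normexp (0.0507) or the authors' value table (0.0618). Tnfrsf10b, a receptor for the death ligand TRAIL and a CHOP target in human cells, had 0.44, -0.15 and -0.07 in the null pools, against -0.56, -0.28 and -0.64 in the wild-type pools. Its null pools were all higher, but the change of 0.56 (95% interval 0.07 to 1.05) did not pass (adjusted p = 0.136). The sestrins Sesn1 and Sesn3, which restrain mTORC1 and are also FoxO targets, changed by 0.02 (-0.33 to 0.37) and -0.02 (-0.5 to 0.46), with overlapping groups.

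The BH3-only genes moved in both directions, with 3 of 8 higher, 1 lower and 4 that did not pass. Of all genes tested, 6.64% rose and 3.81% fell. Hrk, known as a trigger of death in neurons deprived of growth factors and not a classical p53 target, had the largest change of any member. It had -2.11, -2.14 and -2.32 in null pools 1, 2 and 3, against -5.45, -4.66 and -5.15 in wild-type pools 1, 2 and 3. The groups lay far apart on arrays that all read it well above background, and the rise was 7.43-fold (log2 2.89, SE 0.22, adjusted p = 0.000886), the 69th largest among the 21800 genes. Within slides 1, 2 and 3 it was 3.34, 2.52 and 2.83, the call held in the slide-blocked fit (adjusted p = 0.00246), and with normexp background correction the change was 1.34 (adjusted p = 0.0016). Of 7 measured neural marker genes, 3 fell (1 in the slide-blocked fit) and 0 rose, and their summed signal was 0.515 to 0.638 in null pools, against 0.832 to 1.19 in wild-type pools. Of all genes, 3.81% fell, and 0.931% in the slide-blocked fit. The neural gene called in that fit, Neurod1, was well above background on 0 null and 3 wild-type arrays, so the size of its fall is uncertain. It was named after its values were seen. The part of the neural genes in the change of Hrk was not tested.

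Pmaip1, which encodes Noxa and binds Mcl1, had -3.26, -3.14 and -3.41 in the null pools, against -4.3, -4.76 and -4.68 in the wild-type pools. The highest wild-type pool lay well under the lowest null pool, and the rise was 2.48-fold (log2 1.31, SE 0.18, adjusted p = 0.00685; 0.0372 when blocked by slide). It was 1.04 to 1.62 within slides, and with normexp its change was 0.59 (adjusted p = 0.00979). Bbc3, which encodes Puma and binds all the survival proteins, had 0.75, 0.89 and 0.69 in the null pools, against -0.1, -0.2 and -0.15 in the wild-type pools. Both groups were tight, and the rise was 1.9-fold (log2 0.93, SE 0.15, adjusted p = 0.0103; 0.84 to 1.1 within slides), but the call ended in the slide-blocked fit (0.0891) and without null pool 2 (0.0551) or wild-type pool 2 (0.0506).

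Bad, which growth factor signals hold inactive by phosphorylation, had 1.76, 1.9 and 1.9 in the null pools, against 2.72, 2.31 and 2.79 in the wild-type pools. All null pools were lower, by 0.75 log2 units (SE 0.18, adjusted p = 0.0411; -0.96 to -0.41 within slides), and its other probe gave -1.0 with the same separation. The call of Bad ended in the slide-blocked fit (adjusted p = 0.175), with quantile normalization (0.0529), the authors' value table (0.0585) or dim probes tested too (0.105) and without any pool but wild-type pool 2 (up to 0.119). Bcl2l11, which encodes Bim, changed by 0.13 (95% interval -0.25 to 0.52), Bmf by 0.22 (-0.2 to 0.64), Bid, which Casp8 cleaves, by -0.22 (-0.65 to 0.21) and Bik by -0.32 (-0.86 to 0.21). The groups overlapped for all 4 of these genes.

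**Figure D3:**
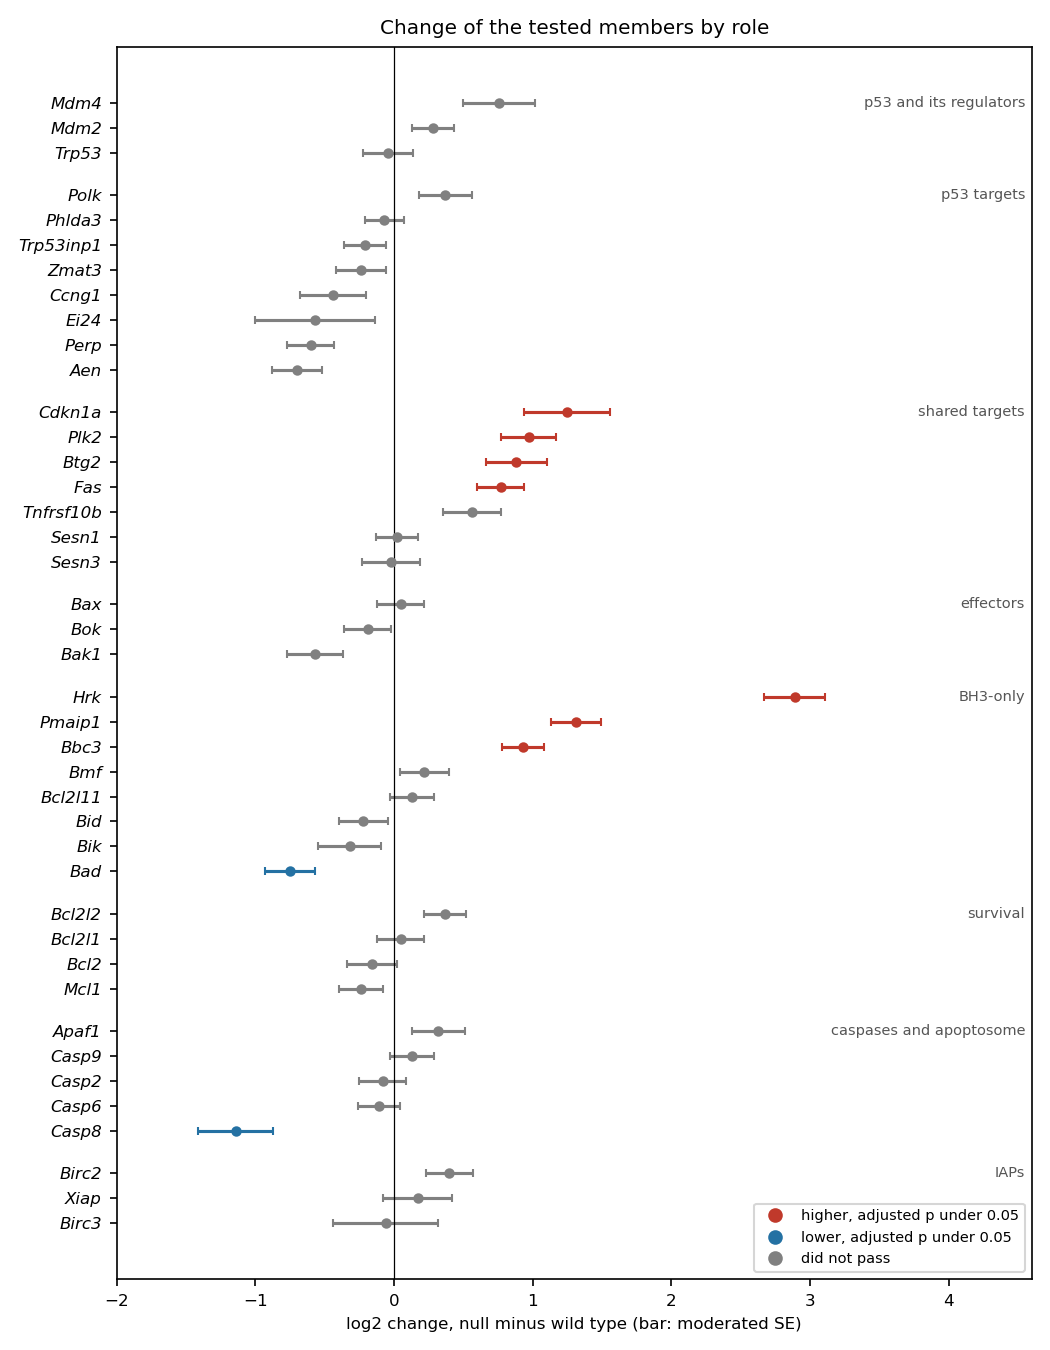
Log2 change (null minus wild type, horizontal axis) of the 41 tested members, grouped by role, with bars for the moderated SE. Red points passed as higher, blue as lower and grey did not pass, and the passing rises lie in the shared targets and the BH3-only genes.

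No effector or survival gene of the Bcl2 family passed, with 0 of 3 effectors and 0 of 4 tested survival genes called by limma and 1 of each at an unadjusted p under 0.05, near the 10.5% and 26.9% of all genes. Bax had 2.26, 2.33 and 2.51 in the null pools, against 2.56, 2.24 and 2.15 in the wild-type pools, and changed by 0.05 (95% interval -0.36 to 0.46). The order of the pools was mixed for Bax, while Bak1 lay lower in every null pool. Bak1 had 2.65, 2.24 and 2.25 in the null pools, against 2.68, 2.95 and 3.21 in the wild-type pools, a change of -0.57 (SE 0.20, adjusted p = 0.124, and 0.0358 with array weights), but within slide 1 the difference was -0.04. Bok, a further effector, changed by -0.19 (-0.59 to 0.22).

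Among the survival genes, Bcl2l2 had -0.71, -0.94 and -0.87 in the null pools, against -1.13, -1.25 and -1.25 in the wild-type pools. It was higher in every null pool, and its change of 0.37 (SE 0.15) did not pass (adjusted p = 0.167). Mcl1, the short-lived partner of Noxa, changed by -0.24 (95% interval -0.62 to 0.14), Bcl2 by -0.16 (-0.58 to 0.26) and Bcl2l1, which encodes Bcl-xL, by 0.05 (-0.34 to 0.44). Second probes of Mcl1 and Bcl2l1 gave -0.10 and -0.16. No probe matched Bcl2a1b, a blood cell survival gene with near-identical copies, and it is not analysed here.

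Of the 5 caspase and apoptosome genes, Casp8 fell and 4 did not pass, beside 3.81% of all genes that fell. Casp8, which starts death from receptors such as Fas, had -1.84, -2.26 and -2.69 in the null pools, against -1.38, -1.27 and -0.72 in the wild-type pools. Every null pool was lower, by 1.14 log2 units or 2.21-fold (SE 0.27, adjusted p = 0.0404), with differences of -0.46, -1.0 and -1.97 within slides 1, 2 and 3. The call ended in the slide-blocked fit (adjusted p = 0.115), with dim probes tested too (0.0937) and without any pool but null pool 1 (up to 0.114). Apaf1 changed by 0.32 (95% interval -0.11 to 0.76), Casp9 by 0.13 (-0.25 to 0.51), Casp2 by -0.08 (-0.47 to 0.32) and Casp6 by -0.11 (-0.47 to 0.24). Among the inhibitors of apoptosis proteins, which bind caspases or their adaptors, Birc2 changed by 0.40 (SE 0.17, adjusted p = 0.19) with every null pool higher. Xiap changed by 0.17 (-0.42 to 0.76) and Birc3, dim on all arrays, by -0.06 (-0.96 to 0.84). Of these 3 genes 0 passed and 0 had an unadjusted p under 0.05, beside 10.5% and 26.9% of all genes.

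**Figure D4:**
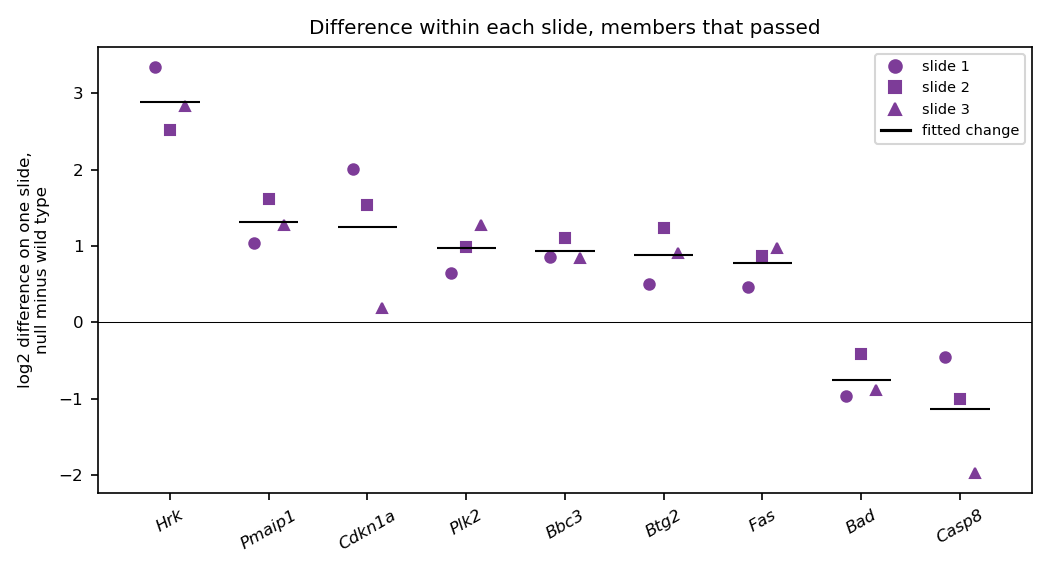
Difference between the null and the wild-type array on each slide (vertical axis, log2 units) for the 9 members that passed, with the fitted change as a line. Slides 1, 2 and 3 are circles, squares and triangles, and Cdkn1a spans 0.19 to 2.01 while Bbc3 spans 0.84 to 1.1.

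In the fit blocked by slide, Hrk and Pmaip1 were the members called (2 of 41), beside 2.47% of all genes called higher and 0.931% called lower by that fit. These 2 genes also held their calls under every one of the 17 alternatives run, leaving out any single pool included. The other 7 calls each ended under at least 1 alternative. Without null pool 3, the pool with the high Prl3d1 signal, 4 members rose (Hrk, Pmaip1, Bbc3 and Cdkn1a) and 0 fell. Without null pool 2, and likewise without wild-type pool 2, 2 rose, and 0 and 1 fell.

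Promoter sequence was set beside these classes for the genes that RefSeq's table on GRCm38.p6 covers, 37 members with 53 start sites. The 250 bases before each start were searched on both strands for the 10-letter p53 decamer (the consensus of 1 arm of a p53 response element) and for 4 further motifs. TGACG is the core of the cAMP response element TGACGTCA, TGATGNAA is the C/EBP-ATF response element, ACGTG is the core of the hypoxia response element and TGANTCA is the AP-1 site. TGACG and ACGTG can overlap. Shown are 3 risen genes with TGACG (Hrk, chr5:118169514-118169763 (+ strand); Plk2, chr13:110394794-110395043 (+ strand); Btg2, chr1:134079156-134079405 (- strand)), risen Cdkn1a at its upstream start, with p53 decamers (chr17:29090729-29090978 (+ strand)), and 2 p53-specific targets with the decamer that did not pass (Mdm2, chr10:117710759-117711008 (- strand); Ccng1, chr11:40755287-40755536 (- strand)). Each runs 5′ to 3′ on its gene's strand, and capitals mark the letters of these motifs.
Hrk: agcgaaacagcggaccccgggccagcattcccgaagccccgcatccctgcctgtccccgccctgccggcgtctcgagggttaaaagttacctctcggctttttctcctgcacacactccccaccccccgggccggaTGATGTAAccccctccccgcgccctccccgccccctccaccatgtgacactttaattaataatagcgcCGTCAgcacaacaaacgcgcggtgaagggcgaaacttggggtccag
Plk2: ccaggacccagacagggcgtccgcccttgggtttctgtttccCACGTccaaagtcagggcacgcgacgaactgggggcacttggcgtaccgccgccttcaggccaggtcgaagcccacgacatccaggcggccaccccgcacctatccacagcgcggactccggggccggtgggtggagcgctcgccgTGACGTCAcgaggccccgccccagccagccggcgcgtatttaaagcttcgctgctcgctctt
Btg2: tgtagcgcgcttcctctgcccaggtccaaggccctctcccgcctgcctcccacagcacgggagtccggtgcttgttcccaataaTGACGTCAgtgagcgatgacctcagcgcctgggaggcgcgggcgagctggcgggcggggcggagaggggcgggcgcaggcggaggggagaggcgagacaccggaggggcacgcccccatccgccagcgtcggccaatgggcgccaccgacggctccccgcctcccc
Cdkn1a: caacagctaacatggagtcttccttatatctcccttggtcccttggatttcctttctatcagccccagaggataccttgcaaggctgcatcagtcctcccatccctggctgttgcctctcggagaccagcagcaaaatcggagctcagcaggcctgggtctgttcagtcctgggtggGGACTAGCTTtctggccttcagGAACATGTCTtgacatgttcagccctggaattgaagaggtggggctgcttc
Mdm2: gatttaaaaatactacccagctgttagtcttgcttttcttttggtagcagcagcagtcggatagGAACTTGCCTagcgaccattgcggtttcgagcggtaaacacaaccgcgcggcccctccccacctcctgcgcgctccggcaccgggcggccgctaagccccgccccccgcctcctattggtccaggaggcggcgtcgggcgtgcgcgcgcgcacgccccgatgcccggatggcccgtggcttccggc
Ccng1: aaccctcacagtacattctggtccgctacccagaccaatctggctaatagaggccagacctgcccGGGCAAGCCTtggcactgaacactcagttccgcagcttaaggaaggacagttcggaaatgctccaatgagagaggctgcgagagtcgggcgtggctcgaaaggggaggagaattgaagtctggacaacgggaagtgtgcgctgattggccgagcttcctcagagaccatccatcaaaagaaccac

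The p53 decamer lay in 10 of the 53 member windows (18.9%), beside 7.13% of the 32851 windows of all genes. By gene it was present for 5 of 7 p53-specific targets with a window and for 2 of 7 shared targets. Only exact matches inside these windows were counted, and near matches and sequence elsewhere were not searched. A gene without a match is therefore not shown to lack a p53 site, and these counts do not show that shared targets have fewer such sites. Of the members in neither class, Bax, Bmf and Trp53 had the decamer. Mdm2 and Ccng1, shown above with it, did not pass the test, while Cdkn1a did. TGACG lay in 12 of 53 member windows (22.6%, beside 17.8% of all), for 1 of the 7 p53-specific and 4 of the 7 shared targets. It lay before the risen Hrk, Bbc3, Plk2 and Btg2, and also before Sesn1, Polk, Bcl2, Bmf, Birc2 and Xiap, which did not pass. Bcl2a1b, which was not tested, had it too. The whole TGACGTCA lay in 3 member windows (5.66%, beside 1.55%), 2 of them those of Plk2 and Btg2. The other was that of Birc2, which did not pass. Windows with TGATGNAA made 3.77% (3.45% of all), with ACGTG 15.1% (16.6%) and with TGANTCA 5.66% (6.75%), and Hrk was among those with TGATGNAA. Some windows of a gene overlap each other, and the matches are a description of letters with no test of binding.

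The further lists give the levels of the same pathways outside the 43 members. Of 26 other p53 pathway genes, all tested, 4 rose and 1 fell, beside 6.64% and 3.81% of all genes. An unadjusted p under 0.05 was reached by 11 of the 26, beside 26.9% of all genes, and the median change was 0.24. Ddit4, an mTORC1 inhibitor that hypoxia and ATF4 also induce, had 6.41, 6.14 and 6.12 in the null pools, against 2.63, 3.53 and 3.09 in the wild-type pools, with a change of 3.14 (SE 0.24, adjusted p = 0.000897). The secreted stress factor Gdf15 had -4.09, -3.83 and -4.41 in the null pools, against -5.76, -6.32 and -6.34 in the wild-type pools, with a change of 2.03 (SE 0.23, adjusted p = 0.00324). Both are also targets of the integrated stress response, as is Sesn2, which changed by 1.28 (SE 0.20, adjusted p = 0.0108). The epoxide hydrolase Ephx1 rose by 1.05 (SE 0.16, adjusted p = 0.00892), and Ckap2, a spindle protein, fell by 0.67 (SE 0.15, adjusted p = 0.0329). These last 2 calls ended in the slide-blocked fit (0.0663 and 0.205). Other p53 targets of this list did not pass, among them Gadd45a (0.81, adjusted p = 0.103), Ddb2 (0.48, 0.125) and Tigar (-0.49, 0.115), named after their values were seen.

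Of 25 other apoptosis genes, 19 were tested, 2 rose and 0 fell, a share like the 10.5% of all genes called, and the median change was -0.15. The risen were Bnip3 (2.16, SE 0.18, adjusted p = 0.00115) and Bnip3l (1.18, SE 0.20, adjusted p = 0.0134), mitochondrial proteins that mark mitochondria for removal and are known hypoxia targets. The call of Bnip3l ended in the slide-blocked fit (0.059). Bnip3 had 5.92, 6.05 and 6.22 in the null pools, against 3.99, 4.09 and 3.63 in the wild-type pools, and also stands in the hypoxia list. The adaptor Fadd (-0.50, adjusted p = 0.136) and cytochrome c (Cycs, -0.53, 0.143) did not pass, named after their values were seen.

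The lists of the stress pathways that share targets with p53 moved as follows beside the shared class. Of 9 measured ATF4 and CHOP genes, which include Ddit4 and Sesn2, 8 rose and 0 fell (median 1.53), led by Chac1 (4.54, SE 0.21, adjusted p = 0.000177) and Trib3 (4.0, SE 0.24, adjusted p = 0.000301). In the hypoxia list 9 of 10 rose and 0 fell (median 2.13), led by Car9 (4.45, SE 0.18, adjusted p = 0.000154) and Ndrg1 (4.38, SE 0.20, adjusted p = 0.000177). The immediate early list had 6 of 9 tested genes higher and 0 lower (median 1.07), led by Ier3 (3.46, SE 0.20, adjusted p = 0.000301) and Egr2 (2.73, SE 0.35, adjusted p = 0.00493), which 2 of 3 wild-type arrays read well above background. Of all genes, 6.64% rose. In the slide-blocked fit 6 ATF4 and CHOP, 7 hypoxia and 4 immediate early genes rose, beside 2.47% of all genes. The part of these pathways in the changes of the shared targets was not tested. The summed signal of the ATF4 and CHOP list was 173 to 192 times the 75th percentile in null pools, against 53.4 to 59.6 in wild-type pools. A large part of the rise in this sum was Ddit4, which hypoxia also induces. The summed signal of the immediate early list was 19.9 to 24.4 in null pools, against 12.5 to 14.3 in wild-type pools.

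**Figure D5:**
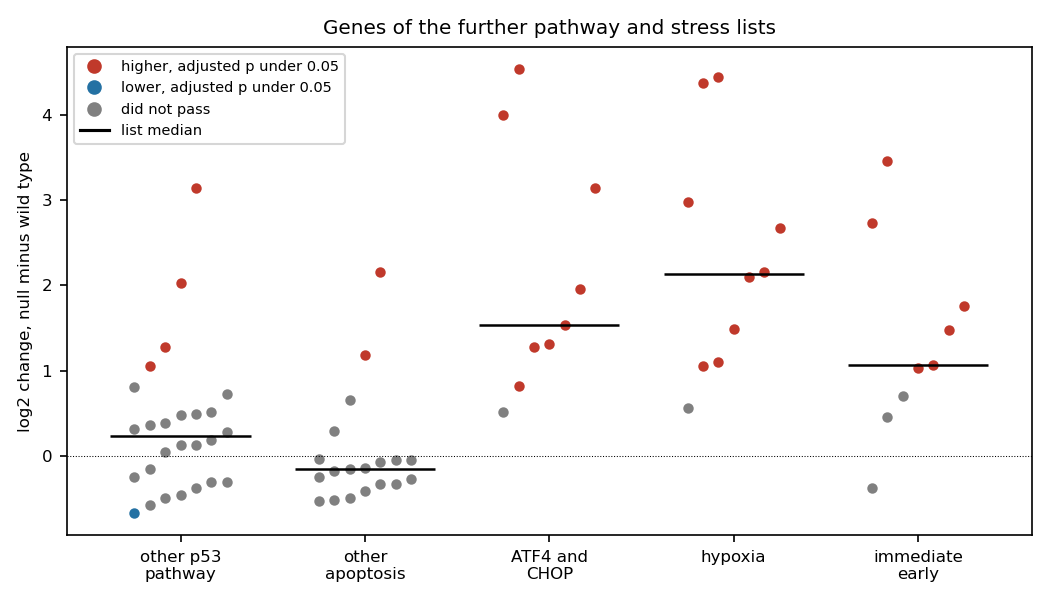
Log2 change (null minus wild type, vertical axis) of the tested genes of 5 further lists, each point a gene, with list medians as lines. Red points passed as higher, the blue point (Ckap2) as lower and grey points did not pass, and list medians run from -0.15 for other apoptosis genes to 2.13 for hypoxia genes.

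Markers of cells other than heart muscle also differed between the groups. Beside the platelet genes given above, 4 of 6 visceral endoderm and liver genes rose (summed signal 33.1 to 37.5 in null pools, against 16.9 to 19.3 in wild-type pools), as did 2 of 7 macrophage genes and 1 of 9 primitive erythroid genes (0 in the slide-blocked fit). Most of the visceral endoderm and liver sum was 1 gene, Apoe. It changed by 0.86, and its call ended in the slide-blocked fit (adjusted p = 0.109). The other risen genes of that list, Rbp4 (2.37), Hnf4a (2.27) and Afp (3.56), kept their calls there but add little to the sum. These genes were named after their values were seen. Of the 9 erythroid genes, 8 had an unadjusted p under 0.05, beside 26.9% of all genes, and the median change of the list was 1.03. The summed erythroid signal was 666 to 985 in null pools, against 243 to 508 in wild-type pools. For macrophage genes it was 8.86 to 12.6 in null pools, against 6.7 to 12.7 in wild-type pools, with Ptprc and Cd68 not among the genes tested. None of the 8 pharyngeal markers passed (3 had an unadjusted p under 0.05), and their summed signal was 12.7 to 18.6 in null pools, against 12.2 to 14.7 in wild-type pools. Most of this sum was 1 gene, Tbx1, which changed by 0.30 (adjusted p = 0.444). Of the 3 genes, Shh (-1.58, adjusted p = 0.0545) and Foxa2 (-0.54, 0.16) were lower in every null pool, and Pax1 (0.35, 0.185) was higher in every null pool. These genes were named after their values were seen. The part of the cells marked by these lists in the changes of the members was not tested.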

How the data were processed

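Arrays carried 1 colour (Cy3) and, per the file headers, were read with Agilent Feature Extraction 10.7.3.1 on design 026655, whose annotation names build mm9. The deposited intensity values are spot signals from which, per the file headers, that software subtracted background with spatial detrending, with no scaling between arrays. The deposited flags are that software's calls of spots well above background, saturated or outlying. How the authors made their deposited log2 value table is not stated. It holds 24158 non-control probes, correlated with the scanner signal at 0.9994 or above on each array, and was used as an alternative.

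Signals were log2-transformed, and each array was centred on the 75th percentile of its non-control spots. Outlier spots (55 to 109 per array) were dropped before replicate spots were averaged. A probe had to be well above background on 3 or more of the 6 arrays, and 26848 of 39429 were. Symbols came from the RefSeq accession of each probe in a RefSeq gene list (GRCm38.p6), and 26424 probes had one. The brightest kept probe stood for a gene. The 21800 genes were fitted with limma 3.58.1 (lmFit, eBayes) in R 4.3.3, two-sided. The threshold was 0.05 after Benjamini-Hochberg adjustment over all of them. Adjusted p values in the text are limma's. Changes are null minus wild type, with moderated SE and 95% intervals. An exact permutation test of 3 against 3 was not used.

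Named are all 43 members, the called genes of the further p53 and apoptosis lists, and the 2 genes with the smallest p of each stress list. A few others, some of them trophoblast genes, were chosen after their values were seen and are marked as such. Cell type lists are otherwise given by counts and sums. Some single-gene results are not reported here. The members and lists were chosen with earlier results of these data known, so no list is tested. On 20 simulated sets of 21784 genes, with 200 shifted in each, the procedure called 0.149% of genes shifted by 0.5 log2 units, 17.5% at 1, 68.9% at 2 and 0.0137% of unshifted genes. Far more genes, 2279, were called in the data themselves, so the adjustment was stricter in the simulated sets. These rates hold for the simulated setting and not for the data.

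Deviations from the group mean correlated across genes at -0.41, -0.09 and -0.41 for pools of the same number, so the numbers were not taken as pairs. The alternatives were other normalizations (quantile, median, normexp background correction with the median spot signal), other probe filters, keeping outlier spots, averaging the probes of a gene, a slide block, array weights, a robust trended prior, the authors' table and leaving out each array. Promoter sequences are those of RefSeq on GRCm38.p6, shortened to the 250 bases before the start.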

Additional observations from a re-analysis of the deposited data

How the results depend on the processing

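No call of a member turned its direction under any of the 17 alternatives. With as-reported counts of 7 members higher, 2 lower and 2279 genes called in all, no filter on dim probes gave 3, 0 and 1037, and the slide as a replicate block gave 2, 0 and 742. Array weights gave 5 lower members and 3817 genes. Of lower members there were 4 with median scaling, normexp or a trended and robust prior, and 1 with quantile normalization or the authors' table. Leaving out 1 pool at a time gave 2 to 6 members higher, 0 to 1 lower and 833 to 1753 genes called, with the lowest counts without null replicate 2 (2, 0 and 902) and without wild-type replicate 2 (2, 1 and 833). Fits that left out a pool used fewer arrays, and the fit with no filter tested more genes. What lowered the counts was not tested. The 4 members called under some alternatives and not as reported were Aen, Perp, Bak1 (lower) and Polk (higher, with the mean of its probes). Another 7 members that did not pass changed sign under some alternative without passing. The deviations of same-numbered pools did not run together, so a call lost under the block is no measure of a weaker effect. Dim genes such as Hrk, Pmaip1 and Fas were flagged well above background on every array. The size of their change still depends on the background correction (for Hrk, 2.89 as reported and 1.34 with normexp). With 3 pools per group, a change that did not pass is not shown to be absent.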
